A study of Mus musculus with 6 samples.

Results

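The Ly6 family was followed through single-cell RNA sequencing of mouse lung by 6 of its genes, Ly6i, Ly6a, Ly6c1, Ly6c2, Ly6e and Ly6g, of 29492 genes named in the 6 libraries. They were taken by symbol, and all 6 are listed in every library. They were chosen by their own measured values, their CPM and shares of cells with a UMI in these libraries, so these levels are given as a description, with fold changes and no p for a member. The lungs came from male C57BL/6J mice aged 12 weeks, kept free of specific pathogens and assigned at random to 3 groups of 2 mice. The first group had SLC-Gq activation 7 times together with LPS at 1 mg/kg (SLC + LPS), SLC being the subcoeruleus nucleus named in the series title. The second had LPS at 1 mg/kg alone, and the third, the control, had PBS. LPS is bacterial lipopolysaccharide, which sets off inflammation through an innate immune receptor. All lungs were taken on day 3, and no transgene or vector for the SLC-Gq activation, its timing relative to LPS or the LPS route is stated in the labels. A group with SLC activation alone is not analysed here, so what the activation does without LPS cannot be told apart from what it does with it.

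Ly6 genes encode small cysteine-rich proteins with 1 folded LU domain, most of them held on the outer cell surface by a lipid (GPI) anchor. Many lie side by side in a cluster on mouse chromosome 15, where copies of close sequence have taken on different cell types. Immunologists use several of them as surface labels: Ly6g for neutrophils, the Ly6C antigen of Ly6c1 and Ly6c2 for inflammatory monocytes, capillary endothelium and some T cells, and Ly6a, also called stem cell antigen, for blood stem cells, vessel walls and stromal cells. Interferons, the cytokines of antiviral defence, are known to induce Ly6a in many mouse cells. Ly6e limits infection by several viruses and is broadly expressed, and Ly6i is a less studied member described in mouse macrophages and bone marrow.

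Ly6c1, Ly6c2 and Ly6g show how near to each other these genes are in sequence, while the cells holding their RNA differed. Their start regions, from 250 bases before to 50 bases after the transcript start in RefSeq on GRCm38.p6, are printed for that reason and stand for 3 of the 6 members. Capitals mark matches to the motifs searched, on either strand. The regions are chr15:75048788-75049087 on the minus strand for Ly6c1, chr15:75111922-75112221 on the minus strand for Ly6c2 and chr15:75155011-75155310 on the plus strand for Ly6g.
Ly6c1: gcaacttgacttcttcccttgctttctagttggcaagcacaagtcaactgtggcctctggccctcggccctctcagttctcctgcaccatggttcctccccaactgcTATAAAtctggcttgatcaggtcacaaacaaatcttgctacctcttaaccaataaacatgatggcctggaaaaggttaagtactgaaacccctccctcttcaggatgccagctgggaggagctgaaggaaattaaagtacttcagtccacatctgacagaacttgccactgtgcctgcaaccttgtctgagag
Ly6c2: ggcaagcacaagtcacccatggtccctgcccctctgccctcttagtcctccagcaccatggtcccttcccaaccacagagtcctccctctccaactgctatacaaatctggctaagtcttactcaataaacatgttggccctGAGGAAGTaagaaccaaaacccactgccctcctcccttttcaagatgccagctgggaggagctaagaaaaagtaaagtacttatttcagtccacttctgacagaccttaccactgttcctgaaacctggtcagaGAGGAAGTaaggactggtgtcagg
Ly6g: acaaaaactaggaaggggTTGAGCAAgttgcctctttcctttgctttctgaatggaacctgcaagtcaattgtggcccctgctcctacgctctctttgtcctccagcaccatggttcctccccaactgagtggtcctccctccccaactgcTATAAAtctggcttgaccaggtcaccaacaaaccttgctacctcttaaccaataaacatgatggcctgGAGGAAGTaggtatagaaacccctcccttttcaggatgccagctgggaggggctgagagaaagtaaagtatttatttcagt
Identity over aligned bases was 78.2% between the start regions of Ly6c1 and Ly6c2, 84.5% between Ly6c1 and Ly6g and 80.7% between Ly6c2 and Ly6g. The TATA box letters TATAAA occurred in Ly6c1 from base -143 and in Ly6g from base -99, counted from the transcript start. The letters GAGGAAGT, a core bound by the myeloid factor PU.1, occurred in Ly6c2 from base -108 and from base 27 and in Ly6g from base -31. The C/EBP core TTGCNNAA was met in Ly6g from base -232, read on the other strand. Of 32851 start regions of this length, 13.6% held TATAAA, 3.20% GAGGAAGT and 10.8% TTGCNNAA, so GAGGAAGT was the least common of these. An excess of matches in the printed regions was not tested. RefSeq lists 2 starts for each of these genes, and only the first listed was searched. Neither the core of the interferon-stimulated response element (GAAA, any 2 bases, GAAA), found in 3.44% of all regions, nor the core of the gamma-activated site, TTCNNNGAA, found in 8.30%, occurred in the 3 windows.

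Near-identical RNA limits the split between Ly6c1 and Ly6c2. Their longest coding transcripts in GENCODE M21, of 844 and 822 bases, were 97.6% identical. Of their 100-base windows, 15.3% in Ly6c1 and 15.8% in Ly6c2 occurred exactly in the other gene, and no window of the other 4 members occurred in another gene. The remaining pairs without Ly6e had 81.3% to 86.2% identity, and Ly6e had 60.2% to 62.0% with the others. The sources used here do not say how reads matching both Ly6c genes were counted, so values of Ly6c1 in cells rich in Ly6c2 are uncertain.

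The files hold UMI counts, that is counts of tagged RNA molecules, in 165547 to 253281 barcodes per library with 31589233 to 48641470 UMIs. Between 11360 and 13650 cells per library were kept, with a median of 1134 to 2578 UMIs. Levels are CPM, the UMIs of a gene scaled to the total UMIs in all kept cells of a library or in those of 1 cell class. Classes were gated on marker genes outside the Ly6 family, and 3219 to 7673 cells per library stayed ungated. Ungated cells were 53.8% and 56.0% of kept cells in SLC + LPS mice, 56.2% and 29.1% in LPS mice and 25.8% and 29.0% in control mice. LPS mouse 2 stood apart, with 553 general capillary endothelial cells and 452 nonclassical monocytes, against 119 and 48 in LPS mouse 1. The 76060 cell barcodes include 48 found in more than 1 library. RNA outside cells was read from barcodes with under 100 UMIs and is called free RNA. In bulk sums over a lung, fewer cells of a type and less RNA per cell cannot be told apart.

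Over all kept cells, Ly6i and Ly6c2 rose after LPS against control, and none of the 6 members was called for SLC + LPS against LPS. Ly6i stood at 425 and 2031 CPM in SLC + LPS mice 1 and 2, at 1341 and 793 CPM in LPS mice 1 and 2 and at 12.4 and 9.30 CPM in control mice 1 and 2. Both treated groups lay far above the control mice, and the pair of SLC + LPS mice spanned the LPS mice on both sides. Ly6i was higher in LPS than in control mice by 7.01 on the log2 scale (SE 0.91). Ly6c2 had 1186 and 2797 CPM in SLC + LPS mice, 1723 and 1629 CPM in LPS mice and 166 and 112 CPM in control mice, a log2 fold change of 3.98 (SE 0.50) for LPS against control. Again both treated groups were clear of the controls, and the SLC + LPS mice lay on either side of the LPS mice. Set against the same control mice, SLC + LPS mice had a log2 fold change of 7.25 (SE 0.92) for Ly6i and 4.26 (SE 0.51) for Ly6c2.

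The other 4 members were not called. Ly6g, the neutrophil antigen, was at 13 and 75.0 CPM in SLC + LPS mice, 47.0 and 201 CPM in LPS mice and 11.9 and 4.32 CPM in control mice (log2 fold change 4.31, SE 1.12, for LPS against control). Ly6a was at 261 and 1021 CPM in SLC + LPS mice, 682 and 1202 CPM in LPS mice and 673 and 546 CPM in control mice (1.00, SE 0.63). LPS mouse 1 lay only just above the higher control for Ly6a. Ly6c1 was at 132 and 161 CPM in SLC + LPS mice, 146 and 693 CPM in LPS mice and 418 and 309 CPM in control mice (0.57, SE 0.63). Its LPS mice fell on both sides of the controls, and its fold change ran from -0.90 to 1.28 as single libraries were left out, changing sign. Ly6e was at 136 and 253 CPM in SLC + LPS mice, 303 and 115 CPM in LPS mice and 182 and 139 CPM in control mice (0.77, SE 0.52), with all 3 groups overlapping.

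A gene was called at an adjusted p under 0.05 in edgeR's quasi-likelihood test over all genes of a sum, with all 6 libraries in 1 fit. For LPS against control over all kept cells 2 of the 6 members were called, where 8.01% of all 17931 genes tested were. Without control mouse 1 or without control mouse 2 no member and no other gene was called, and without LPS mouse 1 there were 4 members. By non-overlap of CPM, 4 members were higher in both LPS mice than in both controls and 0 lower, beside 19.3% of genes higher and 45.9% lower. For SLC + LPS against LPS, 0 of 6 members were called, beside 0% of all genes, with 495 genes at an unadjusted p under 0.05 and 16 called by DESeq2. The SLC + LPS and LPS mice overlapped for all 6 members, beside 13.9% of genes higher and 10.6% lower in both SLC + LPS mice. Since these data chose the members, nothing is read from these counts. In CPM the median of 7397 genes reaching 20 CPM differed by -0.21 (log2) between LPS and control mice. The fold changes stand on edgeR's TMM scaling, where the median of all 17931 genes tested was -0.02. The 2 medians cover different sets of genes. In the sums by class all 6 members passed the filter on low counts, except that Ly6g did not in T, NK and B cells.

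**Figure D1:**
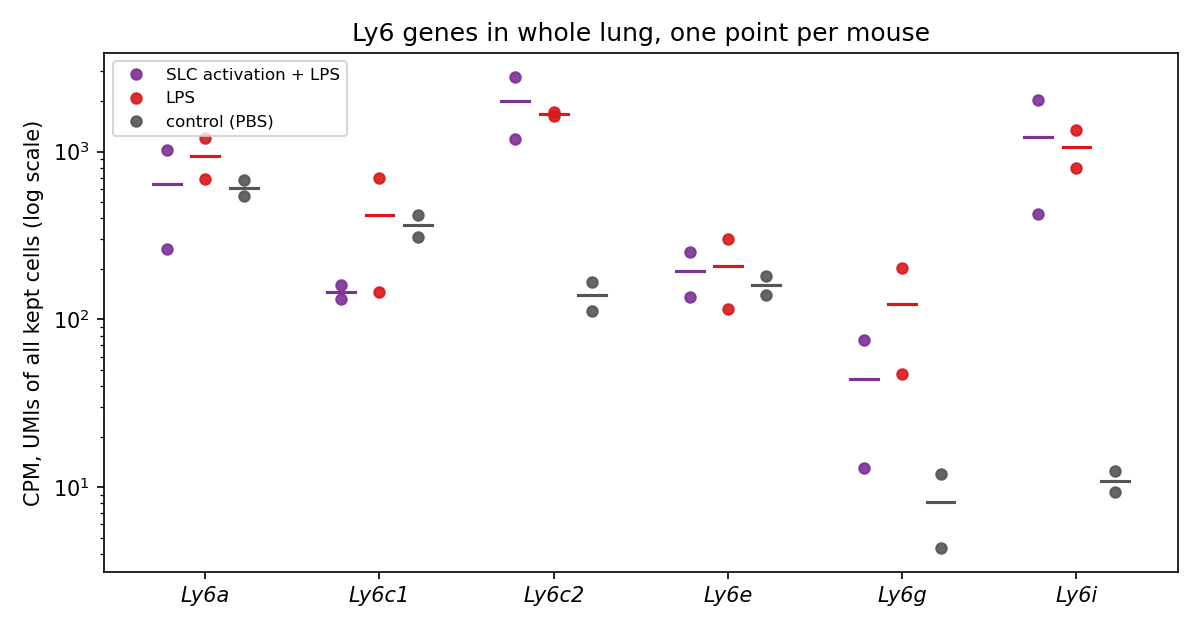
Level of each of the 6 Ly6 genes over all kept cells of a library in CPM on a log axis, with 1 point per mouse and a bar at the group mean. The Ly6i points of SLC + LPS and LPS mice lie between 425 and 2031 CPM, above 12.4 and 9.30 CPM in control mice, while the points of Ly6e overlap between all 3 groups.

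Ly6i had its highest level after LPS in alveolar type 2 cells, the epithelial cells that make surfactant. It stood there at 4616 and 11822 CPM in SLC + LPS mice, 7348 and 4381 CPM in LPS mice and 28.7 and 32.0 CPM in control mice. These sums hold 1338 and 1452 Ly6i UMIs in 65 and 30 cells of SLC + LPS mice, 1492 and 1089 UMIs in 43 and 81 cells of LPS mice, and 7 and 10 UMIs in 63 and 115 cells of control mice. The treated groups overlapped each other and lay far above the controls. A Ly6i UMI was found in 95.4% and 93.3% of alveolar type 2 cells in SLC + LPS mice, 100% and 79.0% in LPS mice and 7.94% and 4.35% in control mice. With each cell thinned to 500 UMIs, the shares were 76.6% and 89.6% in SLC + LPS mice, 92.0% and 54.6% in LPS mice and 1.46% and 1.14% in control mice.

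Free RNA held Ly6i at 313 and 1175 CPM in SLC + LPS mice, 846 and 531 CPM in LPS mice and 8.87 and 61.6 CPM in control mice. Alveolar type 2 cells exceeded that by 14.7 and 10.1 times in SLC + LPS mice and by 8.68 and 8.25 times in LPS mice. In control mice the ratio was 3.23 and 0.520, on the 7 and 10 UMIs given above. Ly6c2, which marks monocytes, was at 117 and 871 CPM in the same alveolar type 2 cells of SLC + LPS mice, 517 and 294 CPM in LPS mice and 139 and 102 CPM in control mice. In all 4 treated mice that was below the free RNA level of Ly6c2, which was 698 and 1255 CPM in SLC + LPS mice and 986 and 897 CPM in LPS mice. The summed markers of 16 of the other 21 classes had a median of 0 in alveolar type 2 cells, and 6.05% of these cells lay near the limit of the gate, with the minimum of 2 markers or a lead of 1 marker over the next class. This class was not among those tested, so its values carry no call.

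Among myeloid cells, the nonclassical monocytes, which patrol vessel walls, had the highest Ly6i level in control mice. They had 718 and 2265 CPM in SLC + LPS mice, 1775 and 1956 CPM in LPS mice and 387 and 240 CPM in control mice, from 30 and 33, 48 and 452, and 106 and 97 cells. They gave 26.6% and 19.1% of all Ly6i UMIs in the control libraries. Of these gated cells 52.1% lay near the limit, and their median share of recruited monocyte markers, 0.277% of UMIs, was close to that of their own, 0.386%. Recruited monocytes, drawn from blood in inflammation, had 762 and 2507 CPM in SLC + LPS mice, 1646 and 1450 CPM in LPS mice and 58.1 and 87.0 CPM in control mice (log2 fold change 4.66, SE 0.59, for LPS against control). Ly6i was the 1 member of 6 called in that class, beside 0.775% of all genes. No member was called there without control mouse 1, control mouse 2 or LPS mouse 2, 2 were called without LPS mouse 1 or SLC + LPS mouse 1, and 3 without SLC + LPS mouse 2.

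Alveolar macrophages, which clear the airspaces, showed the widest Ly6i difference of the 8 sums tested. They had 335 and 2886 CPM in SLC + LPS mice, 1764 and 502 CPM in LPS mice and 0.634 and 1.95 CPM in control mice, where these rest on 3 and 9 UMIs. A Ly6i UMI was found in 79.0% and 98.6% of them in SLC + LPS mice, 96.8% and 34.6% in LPS mice and 0.363% and 0.965% in control mice. Their level was 1.07 and 2.46 times that of free RNA in SLC + LPS mice, and 2.08 and 0.945 times in LPS mice, so in SLC + LPS mouse 1 and LPS mouse 2 it was near the free RNA level. Their median depth was 15018 and 12520 UMIs in LPS mice, against 5395.5 and 4702 UMIs in control mice. The log2 fold change for LPS against control was 9.97 (SE 1.46) and ran from 8.87 to 10.99 as single libraries were left out. Ly6i and Ly6c2 were the 2 of 6 members called in alveolar macrophages, beside 2.65% of all genes, and 0 were called without control mouse 1 or control mouse 2.

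Neutrophils had 392 and 1275 CPM of Ly6i in SLC + LPS mice, 1018 and 786 CPM in LPS mice and 23.7 and 34.2 CPM in control mice (log2 fold change 5.27, SE 0.66, for LPS against control). This level was 1.25 and 1.09 times free RNA in SLC + LPS mice and 1.20 and 1.48 times in LPS mice, so near it. In control mice it was 2.67 and 0.556 times. In neutrophils too Ly6i and Ly6c2 were the 2 members called, beside 2.10% of all genes, and 1 was called without control mouse 1, control mouse 2 or LPS mouse 2. Interstitial macrophages had 252 and 1187 CPM in SLC + LPS mice, 684 and 577 CPM in LPS mice and 3.23 and 4.40 CPM in control mice. Their level was 0.803 and 1.01 times free RNA in SLC + LPS mice and 0.808 and 1.09 times in LPS mice, also near it. T, NK and B cells, general capillary endothelial cells, adventitial and alveolar fibroblasts and mural cells lay below their free RNA level in all 6 libraries. Among T cells, CD8 T cells were an exception in SLC + LPS mouse 1, at 353 CPM and 1.13 times free RNA, and in LPS mouse 1, at 887 CPM and 1.05 times. T cells had 192 and 598 CPM in SLC + LPS mice, 534 and 20.6 CPM in LPS mice and 0.650 and 2.01 CPM in control mice. B cells, whose levels serve as a background, had 76.6 and 636 CPM in SLC + LPS mice, 236 and 65.1 CPM in LPS mice and 0 and 3.41 CPM in control mice. With median depths of 945 to 1527 UMIs, 8.15% and 49.8% of B cells had a Ly6i UMI in SLC + LPS mice, 25.3% and 5.66% in LPS mice and 0% and 0.390% in control mice. For control mouse 1, 0 of 1052 B cells allows a share of up to 0.285%.

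Over 13 classes with at least 20 cells in each library, Ly6i was higher in both LPS mice than in both controls in all 13, and SLC + LPS and LPS mice overlapped in all 13. Free RNA differed between these groups in the same direction, and its part in the class values was not tested. The classes above their free RNA level numbered 5 and 6 in SLC + LPS mice, 5 and 5 in LPS mice and 4 and 2 in control mice. Between 11.7% and 26.0% of genes reaching 20 CPM were higher in both LPS mice, depending on the class. Ungated cells held 40.7% and 46.3% of the library's Ly6i UMIs in SLC + LPS mice, 48.2% and 27.1% in LPS mice and 34.7% and 20.3% in control mice, so much of this RNA sat in cells without a class here. Alveolar type 2 cells, for their high level, gave 8.45% and 2.66% of Ly6i UMIs in SLC + LPS mice, 2.97% and 3.26% in LPS mice and 1.77% and 3.91% in control mice.

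**Figure D2:**
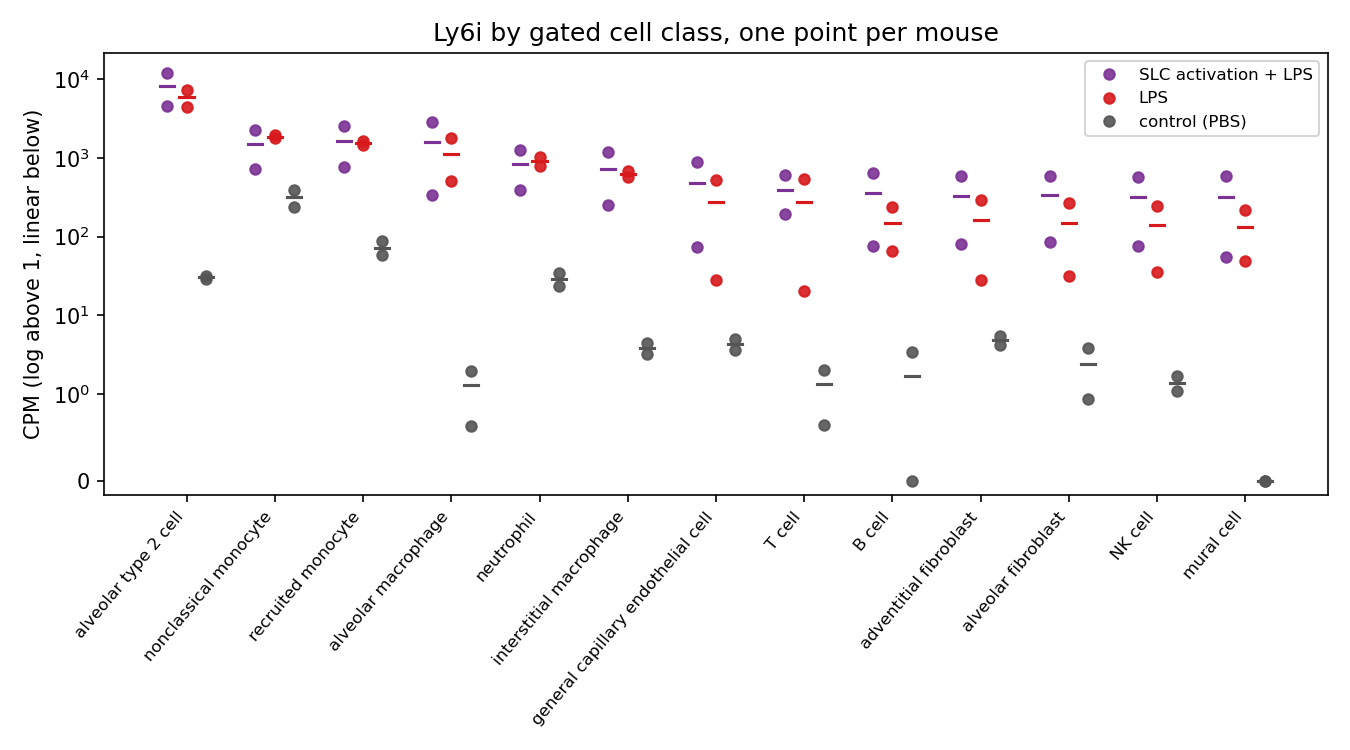
Ly6i level in CPM on a log axis by gated cell class, 1 point per mouse and a bar at the group mean, coloured by group; the axis is linear below 1 CPM. Alveolar type 2 cells of SLC + LPS and LPS mice lie between 4381 and 11822 CPM, above every other class shown.

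Of the 13 classes, recruited monocytes had the highest mean Ly6c2 level, ahead of nonclassical monocytes, interstitial macrophages and T cells, whose ranges overlap. Plasmacytoid dendritic cells, which were too few for the 13, at 7 to 22 cells a library, exceeded recruited monocytes in LPS mouse 1 and in both control mice. Recruited monocytes had 4424 and 8217 CPM in SLC + LPS mice, 4729 and 6598 CPM in LPS mice and 2591 and 1566 CPM in control mice (log2 fold change 1.69, SE 0.45, for LPS against control). The treated groups overlapped and both lay above the controls. These cells held 28.7% and 35.5% of the library's Ly6c2 UMIs in SLC + LPS mice, 33.0% and 51.5% in LPS mice and 21.1% and 15.2% in control mice. Ungated cells held 18396 and 30192 Ly6c2 UMIs in SLC + LPS mice, 26417 and 9416 in LPS mice and 874 and 622 in control mice. Recruited monocytes held 12673 and 26708, 21254 and 35284, and 1115 and 468 in that order. Near the gate's limit lay 64.7% and 64.3% of recruited monocytes in SLC + LPS mice, 60.4% and 35.0% in LPS mice and 37.5% and 50.5% in control mice. Cells gated as interstitial macrophages, the C1q-positive macrophages of lung connective tissue, had 1822 and 2891 CPM in SLC + LPS mice, 1675 and 3824 CPM in LPS mice and 8.89 and 18.1 CPM in control mice. Their median share of recruited monocyte markers was 0.307% of UMIs beside 0.547% for their own, and the part of cells between the 2 types in these values was not tested. Nonclassical monocytes had 5493 and 3006 CPM in SLC + LPS mice, 2031 and 216 CPM in LPS mice and 25.8 and 39.2 CPM in control mice. Both SLC + LPS mice were above both LPS mice, as were 18.7% of genes in this class, and of their 30 and 33 cells 76.7% and 57.6% lay near the gate's limit.

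Alveolar macrophages had 469 and 717 CPM of Ly6c2 in SLC + LPS mice, 436 and 213 CPM in LPS mice and 9.51 and 13.4 CPM in control mice (log2 fold change 5.04, SE 0.47, for LPS against control). All 4 treated mice were below their free RNA level of Ly6c2, so the call in these cells stands beside a free RNA difference of the same direction. Neutrophils had 370 and 1189 CPM in SLC + LPS mice, 799 and 1273 CPM in LPS mice and 211 and 137 CPM in control mice (2.96, SE 0.65). SLC + LPS mouse 1 was the treated mouse nearest to the controls. In both SLC + LPS mice and in LPS mouse 1 neutrophils were below their free RNA level of Ly6c2.

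Ly6c2 also divided the lymphocytes. CD8 T cells, the cytotoxic T cells, had 3056 and 3651 CPM in SLC + LPS mice, 3736 and 2885 CPM in LPS mice and 1331 and 582 CPM in control mice. CD4 T cells, the helper T cells, had 502 and 818 CPM in SLC + LPS mice, 845 and 418 CPM in LPS mice and 486 and 237 CPM in control mice. CD8 exceeded CD4 T cells in 6 of 6 libraries, by 2.46 to 6.90 times. A library held 21 to 105 CD8 and 35 to 69 CD4 T cells. Free RNA held Ly6c2 at 698 and 1255 CPM in SLC + LPS mice, 986 and 897 CPM in LPS mice and 81.2 and 185 CPM in control mice. CD4 T cells were below that level in every treated mouse. NK cells, which kill without prior sensitisation, were at 682 and 1521 CPM in SLC + LPS mice, 897 and 1014 CPM in LPS mice and 1076 and 1061 CPM in control mice. NK cells were the 1 class of 13 in which both LPS mice were below both controls in CPM, as were 27.3% of genes in that class, with a log2 fold change of -0.05 (SE 0.36) in the edgeR fit. In treated mice NK cells were near the free RNA level, and below it in SLC + LPS mouse 1 and LPS mouse 1. In control mice they were far above it. The part of free RNA in these levels was not tested. In T cells as a whole, SLC + LPS mice had 1198 and 2573 CPM, LPS mice 2734 and 1379 CPM and control mice 724 and 465 CPM (log2 fold change 1.85, SE 0.48, for LPS against control). In T cells 0 of the members tested were called beside 0% of genes, with 753 genes at an unadjusted p under 0.05 and 3 members called by DESeq2. In NK cells 0 were called beside 0.144%, with 732 genes at an unadjusted p under 0.05 and 1 member called by DESeq2.

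Of the 13 classes with at least 20 cells in each library, general capillary endothelial cells had the highest mean level of both Ly6a and Ly6c1. The class is named for the common cells of the alveolar capillary bed. It took the gated endothelial cells not set apart as capillary aerocytes or lymphatic cells, so cells of larger vessels were not separated from it. The capillary aerocytes, the thin gas exchange cells of the capillary bed, had more of both genes in 6 of 6 libraries but only 12 to 92 cells a library. Their Ly6c1 was at 9778 and 17618 CPM in SLC + LPS mice, 12047 and 15118 CPM in LPS mice and 5680 and 5648 CPM in control mice. General capillary cells had 5757 and 10085 CPM of Ly6a in SLC + LPS mice, 8492 and 11602 CPM in LPS mice and 3902 and 3644 CPM in control mice (log2 fold change 1.58, SE 0.38, for LPS against control). They had 4453 and 10291 CPM of Ly6c1 in SLC + LPS mice, 8056 and 12118 CPM in LPS mice and 3298 and 3224 CPM in control mice (1.80, SE 0.45). For both genes the LPS and SLC + LPS mice lay above both controls, and SLC + LPS mouse 1 was the lowest of the treated mice. Neither was called, as 0 of the members tested were beside 0% of all 7060 genes in this class, with 625 genes at an unadjusted p under 0.05. DESeq2 called 4 members there, and 2 were called without LPS mouse 1. For SLC + LPS against LPS the log2 fold change was -0.47 (SE 0.37) for Ly6a and -0.58 (SE 0.43) for Ly6c1, with 0 called beside 0% and 447 genes at an unadjusted p under 0.05. Both genes had a UMI in the same cell in 87.6% and 98.7% of these cells in SLC + LPS mice, 95.8% and 99.5% in LPS mice and 84.7% and 79.9% in control mice. The cells numbered 209 and 75 in SLC + LPS mice, 119 and 553 in LPS mice and 707 and 358 in control mice.

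General capillary cells also held a large part of the Ly6c1 UMIs of a lung. They held 39.1% and 31.0% of its UMIs in SLC + LPS mice, 34.1% and 62.9% in LPS mice and 29.6% and 21.1% in control mice. Of 13 classes, both LPS mice were below both controls in 6 and above them in 3, where 17.4% to 36.3% of genes were lower and 11.7% to 26.0% higher in both LPS mice, depending on the class. Neutrophils had 43.6 and 37.2 CPM in SLC + LPS mice, 28.2 and 36.3 CPM in LPS mice and 79.3 and 75.1 CPM in control mice (log2 fold change -0.89, SE 0.35, for LPS against control). Alveolar macrophages had 25.6 and 33.3 CPM in SLC + LPS mice, 27.4 and 12.7 CPM in LPS mice and 43.7 and 63.6 CPM in control mice (-1.21, SE 0.41). B cells had 19.1 and 30.1 CPM in SLC + LPS mice, 21.7 and 26.5 CPM in LPS mice and 50.3 and 68.2 CPM in control mice (-1.28, SE 0.37). None of these was called, and in B cells 0 members were beside 0.194% of genes, with 453 genes at an unadjusted p under 0.05. All lay below the free RNA level of Ly6c1, which was 223 and 157 CPM in SLC + LPS mice, 169 and 730 CPM in LPS mice and 408 and 295 CPM in control mice.

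Stromal cells divided on Ly6a as well. Adventitial fibroblasts, which sheathe vessels and airways, had 1980 and 3082 CPM in SLC + LPS mice, 2910 and 3855 CPM in LPS mice and 2223 and 2146 CPM in control mice. Alveolar fibroblasts had 156 and 957 CPM in SLC + LPS mice, 649 and 373 CPM in LPS mice and 185 and 166 CPM in control mice. The adventitial level was 3.22 to 12.9 times the alveolar one, higher in 6 of 6 libraries. Ly6c1 parted the same cells, being 5.19 to 22.1 times as high in adventitial fibroblasts, also in 6 of 6 libraries.

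Immune cells held less Ly6a than capillary cells. T cells had 666 and 1651 CPM in SLC + LPS mice, 1225 and 1107 CPM in LPS mice and 299 and 260 CPM in control mice (log2 fold change 2.12, SE 0.40, for LPS against control). CD4 exceeded CD8 T cells by 1.67 to 2.63 times in 6 of 6 libraries, the reverse of their order for Ly6c2. Recruited monocytes had 73.0 and 1586 CPM in SLC + LPS mice, 918 and 1258 CPM in LPS mice and 76.7 and 197 CPM in control mice (3.27, SE 1.07). NK cells had 69.3 and 1137 CPM in SLC + LPS mice, 682 and 526 CPM in LPS mice and 63.9 and 108 CPM in control mice (2.93, SE 1.27). In both classes SLC + LPS mouse 1 stood at the level of the controls and SLC + LPS mouse 2 above both LPS mice. Over the 13 classes both LPS mice were above both controls in 12, beside 11.7% to 26.0% of genes by class, and SLC + LPS and LPS mice overlapped in all 13. Free RNA held Ly6a at 414 and 591 CPM in SLC + LPS mice, 546 and 999 CPM in LPS mice and 566 and 472 CPM in control mice. The classes above that level numbered 4 and 9 in SLC + LPS mice, 9 and 6 in LPS mice and 2 and 2 in control mice. The part of free RNA in the other class values was not tested.

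**Figure D3:**
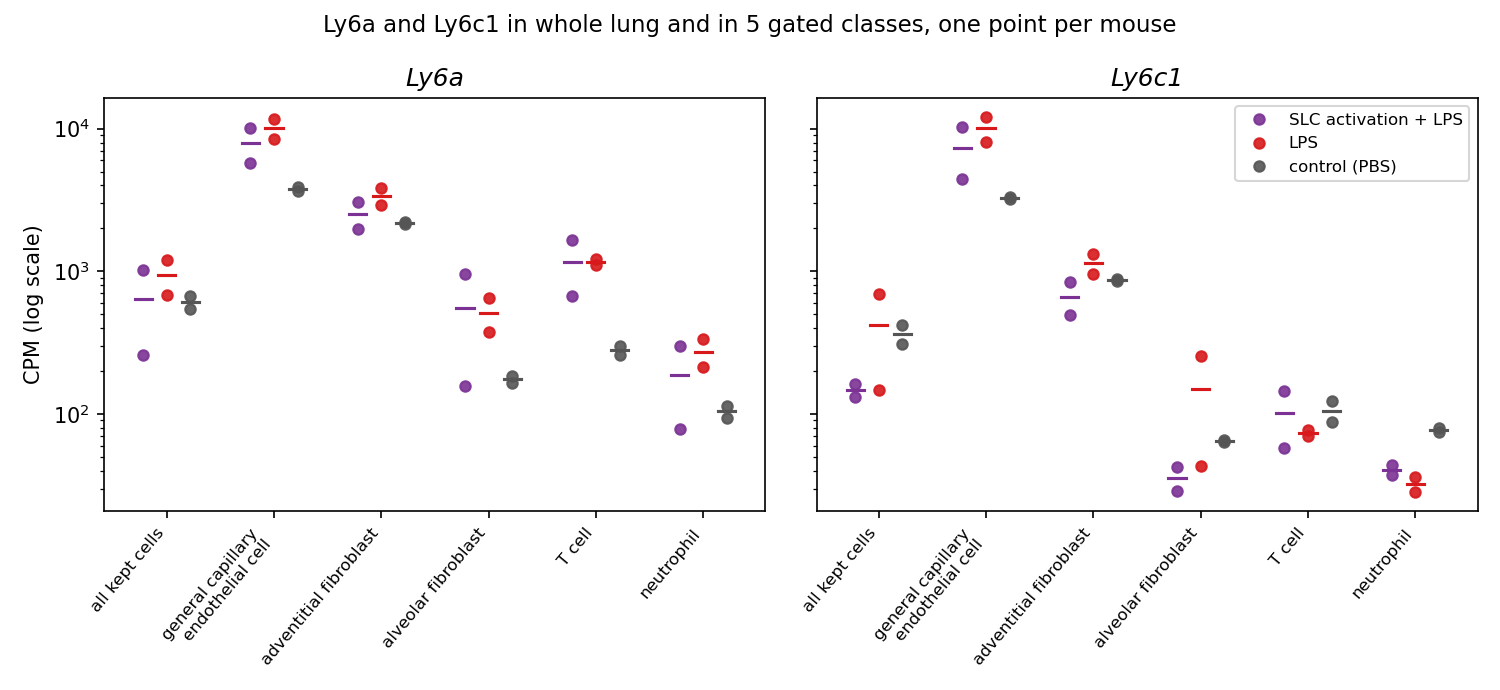
Ly6a and Ly6c1 levels in CPM on a log axis in all kept cells and in 5 gated classes, 1 point per mouse and a bar at the group mean, coloured by group. General capillary endothelial cells top both panels, between 3644 and 11602 CPM for Ly6a and between 3224 and 12118 CPM for Ly6c1.

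The balance of the 2 Ly6C genes set cell types apart. Their transcripts are near equal in length, but how reads matching both were split is not known, so the shares are uncertain, above all those under 1%. Of all UMIs of Ly6c1 and Ly6c2 together, Ly6c1 made up 9.99% and 5.45% in SLC + LPS mice, 7.82% and 29.8% in LPS mice and 71.6% and 73.4% in control mice over all kept cells. The control interval for mouse 1 was 71.0% to 72.3% (exact binomial 95%, counting error only). In general capillary endothelial cells Ly6c1 made up 96.8% and 93.4% in SLC + LPS mice, 87.8% and 97.3% in LPS mice and 99.5% and 99.3% in control mice. In recruited monocytes it made up 0.596% and 0.861% in SLC + LPS mice, 0.738% and 0.678% in LPS mice and 2.02% and 6.02% in control mice. Alveolar type 2 cells were in between in every mouse, at 74.6% and 72.0% in SLC + LPS mice, 66.9% and 67.4% in LPS mice and 74.8% and 73.8% in control mice. But their Ly6c2 was below its free RNA level in all 4 treated mice and in control mouse 2. Their Ly6c1 was below its own free RNA level in LPS mouse 2 and control mouse 2, and near it in control mouse 1. In alveolar macrophages the Ly6c1 share was 5.18% and 4.44% in SLC + LPS mice, 5.92% and 5.63% in LPS mice and 82.1% and 82.6% in control mice. In interstitial macrophages it was 1.70% and 1.56% in SLC + LPS mice, 1.40% and 0.622% in LPS mice and 80.5% and 78.9% in control mice. In nonclassical monocytes it was 0.124% and 0% in SLC + LPS mice, 1.20% and 13.2% in LPS mice and 53.3% and 68.0% in control mice, where it rests on 15 and 25 UMIs. So the share in both macrophage classes and in nonclassical monocytes was lower in all 4 treated mice than in both controls, as it was over all kept cells. But in alveolar macrophages both genes were below their free RNA level in all 6 mice. In interstitial macrophages and nonclassical monocytes Ly6c1 was below its free RNA level in all 6 mice, and Ly6c2 was below its own in both controls. In nonclassical monocytes Ly6c2 was also below it in LPS mouse 2. The part of free RNA in these shares was not tested. In neutrophils the share was 10.5% and 3.03% in SLC + LPS mice, 3.41% and 2.78% in LPS mice and 27.3% and 35.4% in control mice, with Ly6c1 below free RNA in all 6 mice and Ly6c2 in 4.

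**Figure D4:**
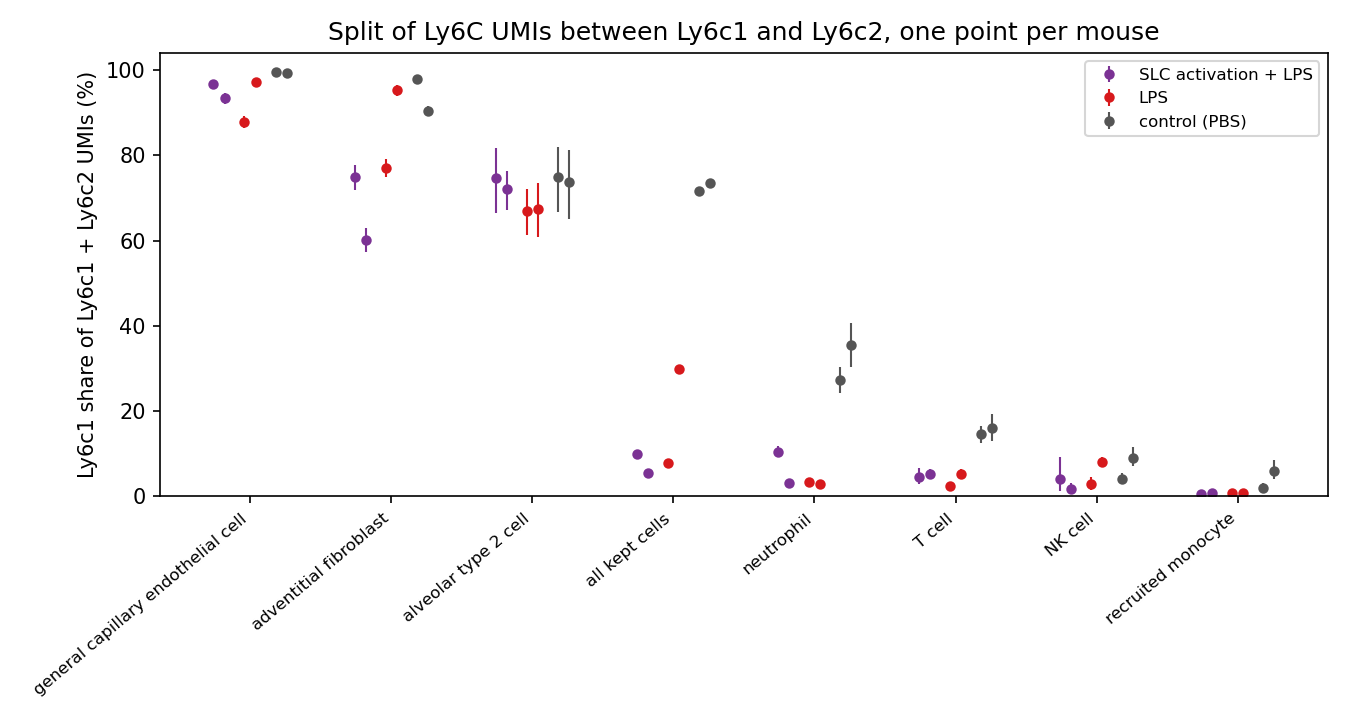
Share of Ly6c1 among the UMIs of Ly6c1 and Ly6c2 in percent, by cell class, 1 point per mouse, coloured by group, with exact binomial 95% intervals for counting error. General capillary endothelial cells lie at 87.8% or above and recruited monocytes at 6.02% or below in all 6 mice.

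Ly6e was the evenest member over the 13 classes. Its class means over the 6 libraries ran from 36.9 CPM in mural cells, the contractile cells of vessel walls, to 396 CPM in general capillary endothelial cells, and it exceeded free RNA in 10 and 11 of 13 classes in SLC + LPS mice, 11 and 9 in LPS mice and 8 and 8 in control mice. Capillary cells had 430 and 474 CPM in SLC + LPS mice, 544 and 240 CPM in LPS mice and 404 and 286 CPM in control mice (log2 fold change 0.29, SE 0.40, for LPS against control). Of 13 classes, LPS and control mice overlapped in 12. B cells were the exception, where 18.5% of genes were lower in both LPS mice, with 236 and 269 CPM in SLC + LPS mice, 416 and 230 CPM in LPS mice and 465 and 480 CPM in control mice (-0.55, SE 0.33). In alveolar macrophages Ly6e was at 132 and 296 CPM in SLC + LPS mice, 343 and 65.7 CPM in LPS mice and 75.7 and 72.9 CPM in control mice (1.67, SE 0.71), the LPS mice lying on both sides of the controls.

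Ly6g was the most cell-type-bound member. Neutrophils were the 1 class of 13 above free RNA in each of the 6 libraries and gave 81.5% and 81.6% of its UMIs in SLC + LPS mice, 85.3% and 97.2% in LPS mice and 91.8% and 89.9% in control mice. Their level was 74.2 and 450 CPM in SLC + LPS mice, 311 and 991 CPM in LPS mice and 118 and 64.3 CPM in control mice (log2 fold change 3.28, SE 1.00, for LPS against control, and -1.69, SE 0.94, for SLC + LPS against LPS). The LPS mice were above both controls, and SLC + LPS mouse 1 lay between the controls. A Ly6g UMI was found in 6.46% and 30.4% of neutrophils in SLC + LPS mice, 25.1% and 56.8% in LPS mice and 6.37% and 4.35% in control mice. Thinned to 500 UMIs, the shares were 2.52% and 16.3% in SLC + LPS mice, 10.4% and 27.4% in LPS mice and 2.67% and 2.08% in control mice. T cells, which should lack Ly6g, had a UMI in 0% and 0.852% of cells in SLC + LPS mice, 1.85% and 1.18% in LPS mice and 0% and 0% in control mice. The T cell median depth was 1563 to 2567.5 UMIs, and that of neutrophils 1053 to 2756 UMIs. The gated neutrophils numbered 3407 and 2918 in SLC + LPS mice, 2740 and 2903 in LPS mice and 1948 and 1495 in control mice. These numbers depend on the gate, which asked for markers above each library's free RNA. A gate counting any marker UMI took 7815 and 6783 in SLC + LPS mice, 6814 and 4390 in LPS mice and 2138 and 1687 in control mice.

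Between SLC + LPS and LPS mice none of the members was called in any of the 8 sums tested. In CPM over the 13 classes, Ly6i, Ly6a and Ly6e overlapped between these groups in all 13. Both SLC + LPS mice were above both LPS mice in 2 classes for Ly6c1, 2 for Ly6c2 and 1 for Ly6g, and below them in 3 classes for Ly6c1 and 2 for Ly6g. Depending on the class, 12.2% to 26.6% of genes were higher and 6.43% to 19.3% lower in both SLC + LPS mice. The share of all genes called there was 0.00939% in neutrophils, 0.0113% in T cells and 0% in recruited monocytes, alveolar macrophages, NK cells and B cells. At an unadjusted p under 0.05 there were 485 genes in neutrophils, 382 in recruited monocytes, 263 in alveolar macrophages, 289 in T cells, 395 in NK cells and 570 in B cells. Ly6c1 over all kept cells had a log2 fold change of -1.49 (SE 0.64), and Ly6g one of -1.44 (SE 0.99). Ly6i had 0.24 (SE 0.70) over all kept cells, -0.37 (SE 0.54) in neutrophils, -0.01 (SE 0.49) in recruited monocytes and 0.51 (SE 0.94) in alveolar macrophages. The widest positive value among members with UMIs in all 4 libraries was 1.83 (SE 0.95) for Ly6c2 in B cells, where SLC + LPS mice had 121 and 959 CPM and LPS mice 296 and 65.1 CPM, which overlap. Without LPS mouse 1, 1 member was called in T cells and 2 in NK cells.

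**Figure D5:**
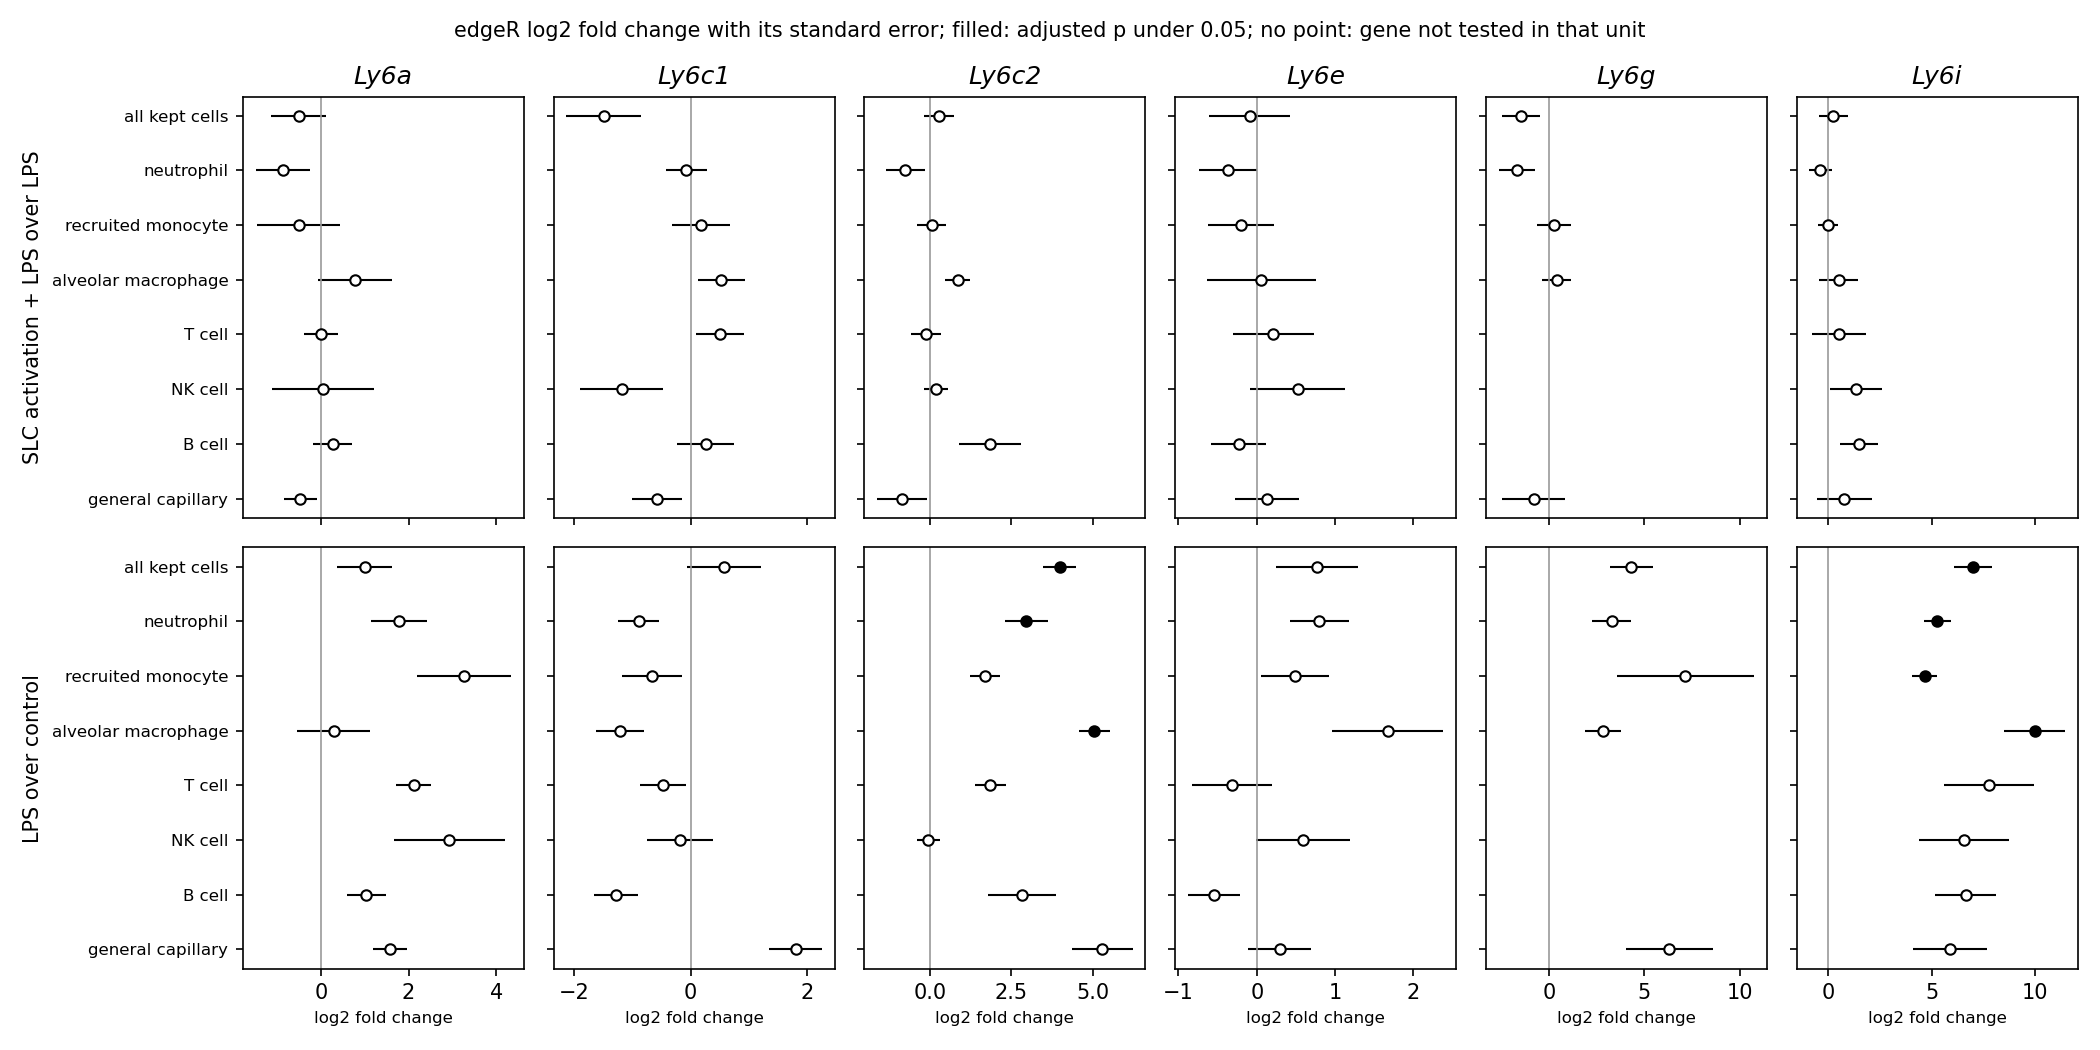
Log2 fold change of each member in each of the 8 sums tested, with bars of 1 SE, for SLC + LPS against LPS (upper row) and LPS against control (lower row), filled where called. Ly6g in recruited monocytes and general capillary cells has control mice at 0 UMIs, so its value there depends on the fit's prior. Ly6i lies between 4.66 and 9.97 in every sum for LPS against control, and between -0.37 and 1.51 for SLC + LPS against LPS.

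The genes that interferons induce were counted beside the members because these cytokines are known to induce Ly6a. Of 12 interferon response genes, 5 rose and 0 fell after LPS against control over all kept cells, beside 8.01% of all genes called in either direction. Their median log2 fold change was 2.84 beside -0.02 over all genes. All 12 had a positive value, and 7 were not called. This list, and those of the receptors and LU genes below, were chosen with earlier results of these data known. Nothing is read from their counts, and Usp18 and Gbp5 are named for their small p. Usp18, which restrains the type I interferon receptor, had 20.2 and 55.0 CPM in SLC + LPS mice, 66.7 and 91.1 CPM in LPS mice and 9.88 and 10.1 CPM in control mice (3.35, SE 0.52, edgeR adjusted p = 0.0238). Gbp5, an interferon-induced GTPase, had 50.3 and 222 CPM in SLC + LPS mice, 194 and 348 CPM in LPS mice and 17.2 and 18.5 CPM in control mice (4.29, SE 0.76, edgeR adjusted p = 0.0300). In both genes SLC + LPS mouse 1 was the lowest treated mouse over all kept cells. It was so too for every member except Ly6e, so this is not particular to Ly6a. For SLC + LPS against LPS 0 of 12 passed, beside 0% of all genes, with a median of -0.46 beside 0.00 over all genes.

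Among the interferon ligands and receptors, Ifngr2, a chain of the interferon gamma receptor, rose after LPS (log2 fold change 1.34, SE 0.29, edgeR adjusted p = 0.0428). Ifnb1, the gene of interferon beta, fell (-3.18, SE 0.63, edgeR adjusted p = 0.0362), at 0.188 and 0.744 CPM in SLC + LPS mice, 1.39 and 1.07 CPM in LPS mice and 18.3 and 10.9 CPM in control mice. Ifng, the gene of interferon gamma, had 0.511 and 16.5 CPM in SLC + LPS mice, 9.89 and 4.78 CPM in LPS mice and 1.56 and 0.945 CPM in control mice and did not pass (2.93, edgeR adjusted p = 0.213). The receptor genes Ifnar1 (0.89, edgeR adjusted p = 0.0578), Ifnar2 (1.29, edgeR adjusted p = 0.0574) and Ifngr1 (0.84, edgeR adjusted p = 0.484) did not pass. For SLC + LPS against LPS 0 of these 6 passed, beside 0% of all genes.

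Of 28 other genes with an LU domain, 14 were tested over all kept cells. After LPS 1 rose and 1 fell, beside 8.01% of all genes called in either direction. Their median log2 fold change was -1.02 beside -0.02 over all genes. Plaur, the urokinase receptor, rose (1.11, SE 0.25, edgeR adjusted p = 0.0481), at 535 and 541 CPM in SLC + LPS mice, 473 and 664 CPM in LPS mice and 388 and 294 CPM in control mice. Lynx1, named for its call after its values were seen and known as a brake on nicotinic receptors, fell (-2.25, SE 0.34, edgeR adjusted p = 0.0232), at 1.88 and 1.52 CPM in SLC + LPS mice, 0.882 and 0.903 CPM in LPS mice and 5.50 and 5.56 CPM in control mice. Cd59a, which protects cells from complement, had 6.29 and 4.16 CPM in SLC + LPS mice, 7.16 and 6.91 CPM in LPS mice and 15.7 and 25.7 CPM in control mice and did not pass (-1.18, edgeR adjusted p = 0.0852). For SLC + LPS against LPS 0 of 14 passed, beside 0% of all genes.

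The genes nearest to each member were ranked by Pearson's r of log2(CPM + 1) over 72 points, 12 classes in each of 6 libraries, among 6339 genes. These points share libraries and free RNA, so r is a description. Ly6i was nearest to Saa3 at 0.83 and Lcn2 at 0.81, both acute phase genes, and to AA467197 at 0.80. Ly6c1 was nearest to Tspan8 at 0.88, Slco2a1 at 0.87 and Plxna2 at 0.85, and Ly6g to Retnlg at 0.91, S100a9 at 0.84 and S100a8 at 0.83, which are 3 of the genes that gate neutrophils. Ly6a was nearest to the interferon-induced GTPase genes Gbp4 at 0.69, Igtp at 0.65 and Iigp1 at 0.64. Ly6c2 was nearest to Ikbke at 0.77, Pgk1 at 0.76 and Zbp1 at 0.74, and Ly6e to Necap2 at 0.70 and to Cd74 and H2-Ab1, both of antigen presentation, at 0.69 each. Within the family, r was 0.64 for Ly6a with Ly6c1, 0.63 for Ly6c2 with Ly6i and -0.25 for Ly6c1 with Ly6c2, the pair of closest sequence.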

How the data were processed

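Lung cells of 6 mice in 3 groups of 2 were measured by BD Rhapsody single-cell RNA sequencing with 150 bp paired-end reads, per the labels' protocols. The authors deposited unfiltered UMI counts by gene and barcode, and the submitters' processing notes name GRCm39 and mm39; the counting tool was not given in the sources used here. Barcodes with at least 500 UMIs, 300 genes and under 20% mitochondrial UMIs were kept with Python 3.11.15 and scanpy 1.11.5. Scrublet's calls were left out. It called 0 and 2 cells in SLC + LPS mice, 60 and 248 in LPS mice and 210 and 172 in control mice, under 0.5% in the first 3, where it has not worked. A class needs at least 2 of its markers above free RNA (Poisson p under 0.01) and more than any other class.

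For each library the UMI counts of all kept cells, and of 7 classes, were added up and tested with edgeR 4.0.16 in R 4.3.3 (TMM, filterByExpr, robust quasi-likelihood F test, group as the only term) and Benjamini-Hochberg adjustment over all genes of a sum. The edgeR step was tested on simulated data. An exact permutation test of 2 against 2 libraries cannot go below p = 0.333, so the spread was pooled over genes and the 3 groups. Replicates are separate mice per the labels. Chi-square per degree of freedom between the libraries of a group was 149 in SLC + LPS, 220 in LPS and 32.4 in control mice, so they differed by more than sampling noise. Intervals and limits from a count of 0, taken as 3 counts, cover counting error only. The members, the marker lists and the gene lists were chosen with earlier results of these data known. Named from the lists were the 3 interferon response genes of smallest p (1 of them is not reported here), all 6 interferon ligands and receptors, and LU genes reaching 20 CPM. Alternatives were DESeq2 1.42.0, its size factors in edgeR, no low-count filter, a replicate block, each library left out, stricter cells, another doublet rule and 2 other gates.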

Additional observations from a re-analysis of the deposited data

Results flagged for a closer look

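Ly6c1 ran in opposite directions between cell classes for LPS against control. The log2 fold change was 1.80 in general capillary endothelial cells, and -0.89 in neutrophils, -0.66 in recruited monocytes, -1.21 in alveolar macrophages, -0.47 in T cells and -1.28 in B cells. This difference between classes was not tested. In the classes with a negative value both LPS mice and both control mice were below their own free RNA level of Ly6c1.

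Free RNA, read from barcodes with under 100 UMIs, held 3 members above their level in both control mice. These barcodes enter no sum tested, but they set the level that a marker had to pass in the gates. The lower of the 2 libraries had 698 CPM of Ly6c2 in SLC + LPS mice and 897 CPM in LPS mice, against 81.2 and 185 CPM in control mice. For Ly6i the lower library had 313 CPM in SLC + LPS mice and 531 CPM in LPS mice, against 8.87 and 61.6 CPM in control mice. For Ly6g it had 11.3 CPM in SLC + LPS mice and 25.5 CPM in LPS mice, against 6.06 and 4.86 CPM in control mice. In control mouse 2 free RNA held more Ly6i, 61.6 CPM, than the kept cells, 9.30 CPM.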

How the results depend on the processing

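Counts below are of members, or genes, called by edgeR. For LPS against control over all kept cells, 2 members became 5 without the low-count filter, and 1437 genes became 3141 with DESeq2, 4076 without the filter and 285 with the replicate block. In neutrophils 2 members became 1 with DESeq2's size factors, with stricter cells and with a gate of 3 markers. In recruited monocytes 1 became 2 with DESeq2 or without the filter, and in alveolar macrophages 2 became 0 with the replicate block. From 0, T cells went to 3 and general capillary endothelial cells to 4 with DESeq2 or without the filter, and NK cells to 1 with DESeq2. For SLC + LPS against LPS over all kept cells, no filter gave 2 members and 317 genes, and DESeq2 16 genes. The cause was not tested. Leaving out 1 library gave, for LPS against control, 0 to 4 members and 0 to 2869 genes over all kept cells, 1 to 3 members in neutrophils, 0 to 3 in recruited monocytes, 0 to 2 in alveolar macrophages and in general capillary endothelial cells, and 0 to 1 in T and NK cells; for SLC + LPS against LPS it gave 0 to 1 in T cells and 0 to 2 in NK cells. No fold change of a called member turned sign. Over the members and some list genes, across sums and alternatives, 1433 fold changes were counted as unchanged, 59 gained and 46 lost a call. The 1433 include uncalled fold changes that turned sign, such as that of Ly6c1 for LPS against control over all kept cells. Counts over the gene lists moved in 105 cases and stayed within 1.5 times in 579. Unthinned shares of cells moved by more than the spread between mice in 311 cases and by less in 31.

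Replicate numbers did not pair the mice: over 17931 genes, deviations of same-numbered libraries had r = -0.180 between SLC + LPS and LPS, -0.106 between SLC + LPS and control and 0.0461 between LPS and control mice. With the numbers of the SLC + LPS libraries crossed, an alternative added after seeing the data, the block gave 0 members and 0 genes called for SLC + LPS against LPS over all kept cells. Where a fit left 1 library in a group, that library was taken to vary like the others. Depth limits members near 0: 3 and 9 Ly6i UMIs in control alveolar macrophages.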
